A study of Mus musculus with 10 samples.

Results

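The integrated stress response and the unfolded protein response were described through 40 genes, chosen by symbol from the literature on these pathways, among the 48516 genes with an identifier in the deposited table. Every one of the 40 symbols was found. The members were ordered by role: 5 sensors and regulators of eIF2 alpha, 8 transcription factors and their partners, 16 targets of the transcription factor Atf4 (8 enzymes of amino acid and single-carbon synthesis, 4 amino acid transporters and 4 other effectors), and 11 chaperones and degradation factors of the endoplasmic reticulum (ER). The samples were 5 libraries of liver metastasis lines and 5 libraries labelled primary tumour, numbered 25, 35, 36, 38 and 72 in each group, from a pancreatic cancer model in FVB mice. The metastases arose in Ink4.1syn_Luc mice after the Ink4a.1 line had been injected into the pancreas, each metastasis line bears its own number, the primary samples carry the cell line label Ink4a, and no sample was treated. The design text speaks of the parental Ink4a.1 line where the labels speak of primary tumours, and whether these are the same material is not stated. The alleles of the model are not spelled out in the labels, and all 10 libraries share the Ink4a name. The labels describe cultures at 90% confluence, and the design text names 4 mice with metastases against 5 metastasis numbers. Nothing in the labels says that the primary samples were separate animals. The p-values therefore describe variation among the libraries as labelled, and this variation can be technical. Levels are FPKM, fragments scaled to transcript length and to library size, so they can be set beside each other between genes. Where 5 values are listed for a group, they follow the tumour numbers 25, 35, 36, 38 and 72.

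In the integrated stress response, kinases such as PERK (Eif2ak3), which senses unfolded protein in the ER, and GCN2 (Eif2ak4), which senses uncharged tRNA, phosphorylate the initiation factor eIF2 alpha. General translation then slows, while the Atf4 mRNA is translated more, and Atf4 induces genes of amino acid supply and, with longer stress, Ddit3 (CHOP). The unfolded protein response adds the sensors Ire1 (Ern1), which splices the Xbp1 mRNA, and Atf6, and both raise the ER chaperones. Secretory cells of the pancreas depend on it, and Atf4 activity is controlled in large part at translation, which mRNA levels do not record.

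The libraries did not all look like pure tumour cultures. Of 15 leukocyte markers, 14 were lower in each of the 4 libraries of numbers 35 and 36 than in any of the 6 libraries of numbers 25, 38 and 72. Their summed level was 2.22 to 3.17 FPKM in numbers 35 and 36, against 1059 to 7838 FPKM in numbers 25, 38 and 72, and Cd3e and S100a9 were listed at 0 in all 4 libraries of numbers 35 and 36. Fibroblast markers summed to 549 to 727 FPKM in numbers 35 and 36 and 880 to 2277 FPKM in numbers 25, 38 and 72, hepatocyte markers to 0.56 to 1.86 FPKM and 1.05 to 20479 FPKM, and plasma cell markers to 54.6 to 63.4 FPKM and 71.5 to 2041 FPKM. Of the 8 plasma cell markers, 6 were lower in all libraries of numbers 35 and 36 than in any other. Igkc and Tnfrsf17 were at 0 there, while Sdc1 overlapped between the sets (mean log2(FPKM + 1) of 5.94 in numbers 35 and 36 and 6.51 in the others). Acinar and islet markers reached at most 4.20 and 0.03 FPKM in numbers 35 and 36 and 427 and 6420 FPKM in numbers 25, 38 and 72. Muscle markers reached 34.5 and 7498 FPKM, and erythroid markers 0.95 and 29016 FPKM, in the same order. The summed tumour epithelial markers overlapped, at 267 to 607 FPKM and 86.8 to 722 FPKM. Of these 6 markers, 2 (Cdh1 and Epcam) were lower in each library of numbers 35 and 36 than in any other, and 0 were higher. Mean log2(FPKM + 1) was 0.11 in numbers 35 and 36, against 2.47 in the others, for Cdh1, and 0.03 against 2.83 for Epcam. Proliferation markers summed to 1019 to 1167 FPKM in numbers 35 and 36 and 197 to 669 FPKM in numbers 25, 38 and 72. The FPKM sum of metastasis 25 was 939415, above the 563509 to 653161 of the other 9 libraries. Its median ratio scaling factor, taken over genes above 0 in every library, was 0.996, within the 0.975 to 1.03 of the other 9.

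Promoter windows from RefSeq (GRCm38.p6, 250 bases before to 50 after a start) were matched by symbol for 36 of the 40 members and searched on both strands. They are shown because different letters are known to serve Atf4 and the factors of the ER branch. The core of the C/EBP-ATF element, TGATGNAA, occurred in 7 of the 36 (Asns, Chac1, Herpud1, Nupr1, Pycr1, Trib3 and Vldlr), against 4.51% of all 27025 symbols with a window. Among the Atf4 targets with a window it occurred in 2 of 8 synthesis enzymes, 0 of 2 transporters and 2 of 4 other effectors. It also occurred in 2 of 8 transcription factors, 1 of 10 chaperones and degradation factors and 0 of 4 sensors and eIF2 alpha regulators. The ER stress element, CCAAT and CCACG with 9 unspecified bases between them, occurred in 5, all of them among the 10 chaperones and degradation factors with a window (Calr, Dnajc3, Hsp90b1, Hspa5 and Pdia6), against 0.137% of symbols. Its second form, ATTGG and CCACG with 1 base between them, occurred in Herpud1 alone, against 0.0444% of symbols. Of the members with each motif, those with the smallest p in limma's F-test among tumour numbers are shown, whether or not they passed, 5′ to 3′ on the gene's strand, with the motif in capitals. The Asns window (chr6:7693160-7693459, minus strand) has the C/EBP-ATF core starting 23 bases before the start site, and the Nupr1 window (chr7:126625421-126625720, minus strand) has it on the opposite strand, 110 bases before. The Pdia6 window (chr12:17266339-17266638, plus strand) and the Dnajc3 window (chr14:118937682-118937981, plus strand) hold the ER stress element 98 and 105 bases before the start. The Herpud1 window (chr8:94386179-94386478, plus strand) holds the C/EBP-ATF core on the opposite strand, 112 bases before the start, and the second ER stress element 52 bases before it. A match describes the letters and is not evidence of binding. The members were chosen from the literature on these pathways, so an excess over all symbols can follow from that choice.
Asns: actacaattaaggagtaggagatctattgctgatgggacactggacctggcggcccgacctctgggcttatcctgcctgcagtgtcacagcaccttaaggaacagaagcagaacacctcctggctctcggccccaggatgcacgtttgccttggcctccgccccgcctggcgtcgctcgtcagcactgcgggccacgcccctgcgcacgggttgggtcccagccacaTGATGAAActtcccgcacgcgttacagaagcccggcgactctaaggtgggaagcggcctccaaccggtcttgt
Nupr1: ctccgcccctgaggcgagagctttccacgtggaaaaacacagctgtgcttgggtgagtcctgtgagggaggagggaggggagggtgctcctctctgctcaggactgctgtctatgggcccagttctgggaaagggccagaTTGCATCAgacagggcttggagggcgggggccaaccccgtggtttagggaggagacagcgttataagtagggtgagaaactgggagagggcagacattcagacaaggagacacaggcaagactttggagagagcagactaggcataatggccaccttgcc
Pdia6: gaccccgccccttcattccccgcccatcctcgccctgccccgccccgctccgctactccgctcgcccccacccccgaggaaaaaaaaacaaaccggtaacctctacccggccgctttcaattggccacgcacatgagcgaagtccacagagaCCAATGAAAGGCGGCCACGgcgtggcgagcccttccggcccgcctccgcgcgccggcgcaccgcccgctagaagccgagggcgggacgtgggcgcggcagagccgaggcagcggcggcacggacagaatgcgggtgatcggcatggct
Dnajc3: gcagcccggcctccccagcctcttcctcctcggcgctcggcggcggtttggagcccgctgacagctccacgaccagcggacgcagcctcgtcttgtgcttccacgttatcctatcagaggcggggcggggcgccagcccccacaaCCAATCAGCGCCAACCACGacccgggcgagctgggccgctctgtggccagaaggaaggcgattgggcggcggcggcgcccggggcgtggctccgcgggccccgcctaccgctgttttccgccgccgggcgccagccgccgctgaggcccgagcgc
Herpud1: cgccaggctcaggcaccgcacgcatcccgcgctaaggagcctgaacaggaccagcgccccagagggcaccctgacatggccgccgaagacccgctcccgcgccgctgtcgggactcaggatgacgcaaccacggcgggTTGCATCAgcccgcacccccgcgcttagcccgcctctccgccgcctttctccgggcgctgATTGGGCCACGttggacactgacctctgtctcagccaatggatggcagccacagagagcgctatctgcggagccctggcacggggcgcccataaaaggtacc

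Spread across the 10 libraries differed between the role groups and within them. The ratio of the highest to the lowest library had a median of 19.96 over the 4 other effectors, 5.09 over the 3 transporters tested, 9.90 over the 8 synthesis enzymes, 4.88 over the 5 sensors and eIF2 alpha regulators, 4.18 over the 8 transcription factors and 2.53 over the 11 chaperones and degradation factors, against 3.45 over the 12432 genes above the expression minimum with no value of 0. For Atf4 the ratio was 1.50, the smallest of the 39 members tested, and 1.89% of those 12432 genes had a smaller one. Asns spanned 29.2-fold, Ddit4 26.0-fold and Vldlr 105-fold, while the Atf4 targets Sesn2 and Slc6a9 spanned 2.60-fold and 2.95-fold, under the median of all genes. These ratios rest on single libraries at each end. That of Vldlr divides by 0.114 FPKM in metastasis 36, under the expression minimum of 1 FPKM.

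**Figure D1:**
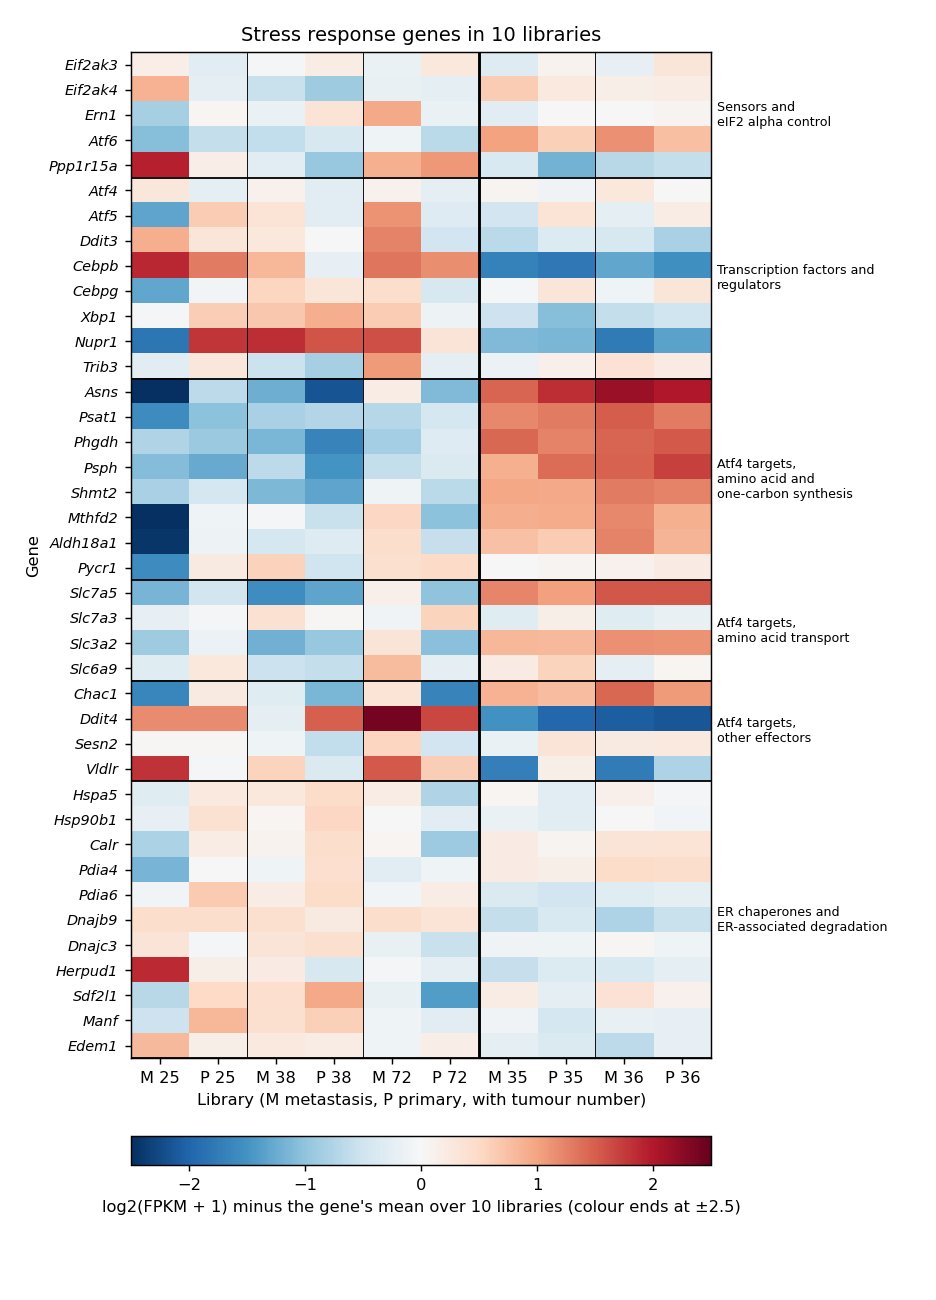
Each row is 1 of the 40 genes, grouped by role, and each column 1 library (M, metastasis; P, primary; with the tumour number). Colour is log2(FPKM + 1) minus the gene's mean over the 10 libraries. The synthesis enzymes from Asns to Aldh18a1 and the transporters Slc7a5 and Slc3a2 are red in the 4 columns of numbers 35 and 36, where Cebpb and Ddit4 are blue, and Atf4 is pale throughout.

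The first comparison asked whether members differed between metastasis and primary libraries. Of the 40 members, 39 had at least 1 FPKM in at least 5 libraries and were tested, and the arginine and lysine transporter gene Slc7a3, at most 0.971 FPKM, was not. Of these, 0 passed an adjusted p of 0.05 in limma's moderated test with Benjamini-Hochberg adjustment over 13152 genes (smallest adjusted p 0.99985), and 0.0% of all genes did. At an unadjusted p under 0.05 there was 1 member, Atf4, and 31 genes in all (0.236%), 8 of them higher like Atf4 (0.0608%) and 23 lower (0.175%). The share of 0.236% lies far under the level of 0.05 itself. Differences between tumour numbers stay in the error of this test, so 0 calls do not show that the groups were alike. With the tumour number as a block, 0 passed again, and Atf4 and Cebpb had an unadjusted p under 0.05, as had 1.58% of all genes. Within numbers 35 and 36 this was so for 5 members, Eif2ak3, Atf6, Atf5, Cebpg and Vldlr (6.08% of all genes), and within numbers 25, 38 and 72 for 2 members, Ddit3 and Vldlr (1.1% of all genes), and 0 passed in either. The median difference of the 39 members was 0.03 on the log2(FPKM + 1) scale, 22 higher and 17 lower, against 0.0075 over all genes tested.

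Atf4 (ENSMUSG00000042406.7, chromosome 15, 80255184 to 80257540, GRCm38), the central transcription factor, was 282, 244, 277, 249 and 251 FPKM in metastasis libraries, against 197, 217, 234, 189 and 194 FPKM in primary libraries. The groups did not overlap, which was also true of 0.0684% of all genes in this direction. The mean was 261 ± 17.6 FPKM in metastasis, against 206 ± 19.0 FPKM in primary (SD, n = 5 each), a difference of 0.34 (SE 0.15) on the log2 scale with an unadjusted p of 0.0461 in limma's test, which did not survive adjustment. It was higher in 5 of 5 pairs, as were Cebpb among the members and 2.36% of all genes. Within numbers 35 and 36 the difference was 0.20 (SE 0.10), and within numbers 25, 38 and 72 it was 0.43 (SE 0.25).

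Ddit3, the proapoptotic factor CHOP downstream of Atf4, was 65.1, 20.9, 25.4, 40.9 and 82.1 FPKM in metastasis libraries, against 42.2, 26.5, 19.1, 34.0 and 24.2 FPKM in primary libraries. Metastasis 72 and 25 were the highest, and the groups overlapped (0.53, SE 0.39). Within numbers 25, 38 and 72 its difference was 0.87 (SE 0.36), and within numbers 35 and 36 it was 0.03 (SE 0.21). The pseudokinase gene Trib3, induced by Atf4 and Ddit3 together, was 11.4, 12.4, 18.0, 9.32 and 30.0 FPKM in metastasis libraries, against 17.2, 15.2, 16.1, 7.41 and 11.5 FPKM in primary libraries. Metastasis 72 stood highest and the rest intermingled (0.19, SE 0.34). The related factor Atf5 lay between 41.8 and 233 FPKM in metastasis and between 85.2 and 165 FPKM in primary libraries. Cebpg, which pairs with Atf4 on DNA, lay between 6.81 and 27.1 FPKM in metastasis and between 13.7 and 23.0 FPKM in primary libraries.

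Of the kinases, Eif2ak3 was 7.89, 5.31, 5.81, 6.71 and 6.03 FPKM in metastasis libraries, against 5.56, 7.40, 8.72, 8.03 and 8.47 FPKM in primary libraries. Number 25 was the only pair with the metastasis library higher (-0.23, SE 0.20). Eif2ak4 was 7.73, 6.44, 4.32, 2.24 and 3.19 FPKM in metastasis libraries, against 3.06, 4.64, 4.41, 1.59 and 3.11 FPKM in primary libraries, with metastasis 25 the highest (0.37, SE 0.34). Ern1 stood between 5.72 and 22.1 FPKM in metastasis and between 9.62 and 14.0 FPKM in primary libraries. Ppp1r15a, which recruits the phosphatase that resets eIF2 alpha, was 113, 21.8, 17.3, 23.4 and 53.8 FPKM in metastasis libraries, against 32.5, 12.2, 18.8, 14.5 and 62.5 FPKM in primary libraries. Metastasis 25 held the highest value, and the groups overlapped (0.58, SE 0.58).

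Among the effectors of Atf4, Chac1, which degrades glutathione, was 1.53, 13.4, 20.2, 5.39 and 8.97 FPKM in metastasis libraries, against 8.21, 12.4, 15.4, 2.56 and 1.45 FPKM in primary libraries. It was higher in metastasis in 4 of 5 pairs and lower in number 25 (0.30, SE 0.68). Sesn2, a leucine sensor that restrains mTORC1, was 5.46, 4.68, 6.42, 4.92 and 8.17 FPKM in metastasis libraries, against 5.50, 6.93, 6.49, 3.14 and 3.53 FPKM in primary libraries (0.21, SE 0.26). Its values overlapped, with metastasis 72 the highest.

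**Figure D2:**
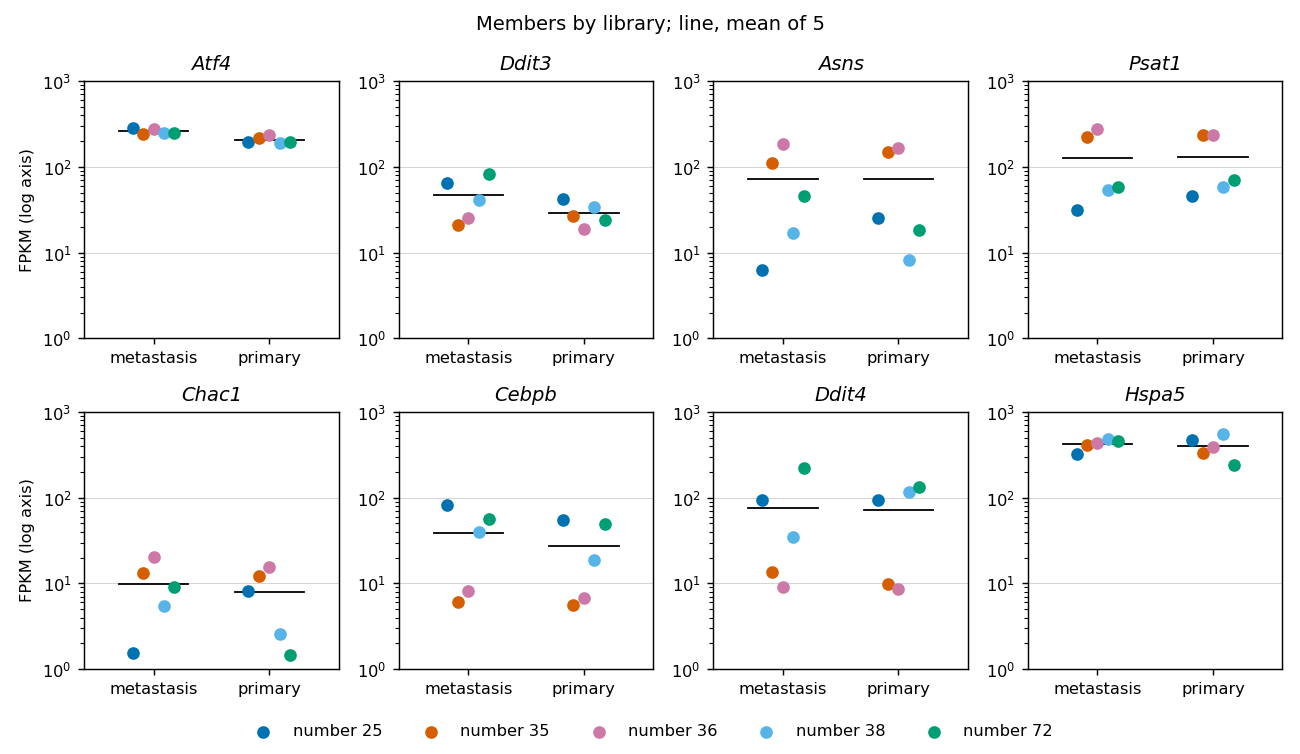
FPKM on a log axis for 8 members, metastasis libraries on the left and primary libraries on the right of each panel. Each point is 1 library, coloured by tumour number, and the line is the mean of 5. The Atf4 points of the groups do not overlap, at 244 to 282 FPKM in metastasis, against 189 to 234 FPKM in primary libraries. For Asns and Psat1, the points of numbers 35 and 36 lie above all others, and the groups overlap.

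The second comparison asked whether members differed among the 5 tumour numbers, with the metastasis and the primary library of a number treated as a pair of samples and the group kept in the model. In limma's moderated F-test, 12 of 39 members passed an adjusted p of 0.05, and 25.4% of all genes did, so the count over all members is near the background. Of all genes, 13.7% passed with a higher mean in numbers 35 and 36 and 11.7% with a lower one. The calls were spread unevenly over the roles. They comprised 5 of 8 synthesis enzymes, 2 of the 3 transporters tested, 1 of 4 other effectors, 2 of 5 sensors and eIF2 alpha regulators, 1 of 8 transcription factors and 1 of 11 chaperones and degradation factors. Of the 12, 8 had their higher levels in numbers 35 and 36 and 4 had their lower levels there. In the 6 libraries of numbers 25, 38 and 72 alone, 0 members and 1 gene (0.0076%) passed, with 2 members, Ppp1r15a and Cebpb, and 520 genes (3.95%) at an unadjusted p under 0.05.

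Of the 8 enzymes of amino acid and single-carbon synthesis, Asns, Psat1, Phgdh, Psph and Shmt2 passed the F-test, with their higher levels in numbers 35 and 36, and Mthfd2, Aldh18a1 and Pycr1 did not. Of the 8 enzymes, 7 were higher in each of the 4 libraries of numbers 35 and 36 than in any of the 6 others, a pattern held by 24.0% of all genes, and the median difference between the 2 sets of numbers was 2.04 on the log2 scale, against 0.07 over all genes tested. This division of the numbers was known from earlier results and is given as a description. Fewer cells of a type and less RNA per cell cannot be told apart in these bulk libraries. The 6 libraries with the lower levels are those with leukocyte transcripts (1059 to 7838 FPKM summed, against 2.22 to 3.17 FPKM in numbers 35 and 36), fibroblast transcripts of 880 FPKM or more and proliferation markers of 669 FPKM or less, and the part of these cells and of growth rate in the difference was not tested.

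Asns (ENSMUSG00000029752.12, chromosome 6, 7675169 to 7693254), which makes asparagine and carries the C/EBP-ATF core shown above, was 6.27, 112, 183, 16.8 and 46.2 FPKM in metastasis libraries, against 25.1, 147, 164, 8.29 and 18.2 FPKM in primary libraries. The 4 libraries of numbers 35 and 36 lay between 112 and 183 FPKM, and none of the others exceeded 46.2 FPKM, reached in metastasis 72 (F-test adjusted p = 0.0207 in limma). The metastasis and primary means were close, at 72.9 ± 74.1 and 72.4 ± 76.1 FPKM (SD, n = 5 each).

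The serine pathway genes followed the same order. Phgdh, the first enzyme of serine synthesis, was 24.6, 116, 117, 18.4 and 23.0 FPKM in metastasis libraries, against 21.7, 100.2, 123, 12.5 and 33.5 FPKM in primary libraries (limma adjusted p = 0.00509). Psat1 (ENSMUSG00000024640.9, chromosome 19, 15904678 to 15947337), its next enzyme, was 31.5, 221, 276, 53.9 and 57.7 FPKM in metastasis libraries, against 46.2, 237, 237, 57.4 and 70.6 FPKM in primary libraries (adjusted p = 0.00439). In both genes every library of numbers 35 and 36 was above every other. Within numbers 25, 38 and 72 alone, limma's F-test gave an unadjusted p of 0.212 for Phgdh and 0.182 for Psat1. Psph, which completes the pathway, ranged from 61.6 to 109 FPKM in numbers 35 and 36 and from 11.0 to 25.5 FPKM in numbers 25, 38 and 72 (adjusted p = 0.00813). Shmt2, which turns serine into glycine in mitochondria and loads the folate carrier, ranged from 95.8 to 122 FPKM and from 19.0 to 45.4 FPKM in the same sets (adjusted p = 0.00673).

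The folate and proline enzymes were less uniform. Mthfd2, the mitochondrial folate dehydrogenase, ranged from 66.7 to 83.1 FPKM in numbers 35 and 36 and from 4.58 to 51.4 FPKM in numbers 25, 38 and 72, lowest in metastasis 25 (adjusted p = 0.206). Aldh18a1, which starts proline synthesis, was 3.09, 35.9, 51.4, 15.4 and 29.3 FPKM in metastasis libraries, against 19.4, 33.3, 39.2, 16.8 and 14.0 FPKM in primary libraries (adjusted p = 0.165). Its lowest value was again in metastasis 25. Pycr1, which completes proline, was 1.83, 7.38, 7.98, 11.5 and 9.97 FPKM in metastasis libraries, against 8.83, 7.79, 8.66, 4.89 and 10.7 FPKM in primary libraries. It did not follow the numbers (adjusted p = 0.610), and it was the enzyme of the 8 whose sets overlapped.

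Slc7a5 and Slc3a2 encode the light and heavy chain of the large neutral amino acid transporter. Slc7a5 was 23.1, 125, 157, 17.4 and 57.6 FPKM in metastasis libraries, against 38.2, 109, 157, 20.7 and 25.9 FPKM in primary libraries (limma F-test adjusted p = 0.0123). Slc3a2 was 76.7, 255, 317, 62.2 and 180.3 FPKM in metastasis libraries, against 130.3, 251, 316, 73.7 and 69.2 FPKM in primary libraries (adjusted p = 0.0427). In both, all libraries of numbers 35 and 36 were above all others, and metastasis 72 was the highest of the others. The call of Slc3a2 was lost with median ratio scaling, with quantile normalization and with a looser or no expression minimum. The glycine transporter gene Slc6a9 overlapped between the sets, at 6.60 to 12.0 FPKM in numbers 35 and 36 and 4.84 to 14.3 FPKM in numbers 25, 38 and 72.

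Other members ran the opposite way. Cebpb, a leucine zipper factor of stress and inflammation that is also abundant in myeloid cells, was 82.8, 6.09, 8.25, 39.6 and 56.7 FPKM in metastasis libraries, against 54.6, 5.55, 6.83, 18.7 and 49.9 FPKM in primary libraries (limma adjusted p = 0.00424). Every library of numbers 35 and 36 was below every other. Ddit4, an inhibitor of mTORC1 that hypoxia and glucocorticoids also induce, was 94.7, 13.7, 9.16, 35.1 and 222 FPKM in metastasis libraries, against 94.2, 9.80, 8.52, 117 and 133 FPKM in primary libraries (adjusted p = 0.0105). Numbers 35 and 36 were again the lowest, the opposite order to the synthesis enzymes, which are Atf4 targets too. Nupr1, a stress-induced chromatin protein first described in pancreatitis, was 53.3 to 84.2 FPKM in numbers 35 and 36 and 229 to 663 FPKM in the others except metastasis 25, with 51.8 FPKM (adjusted p = 0.144). Chac1 was ordered like the synthesis enzymes, at 12.4 to 20.2 FPKM in numbers 35 and 36 and at most 8.97 FPKM in the others, but was not called (adjusted p = 0.197).

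**Figure D3:**
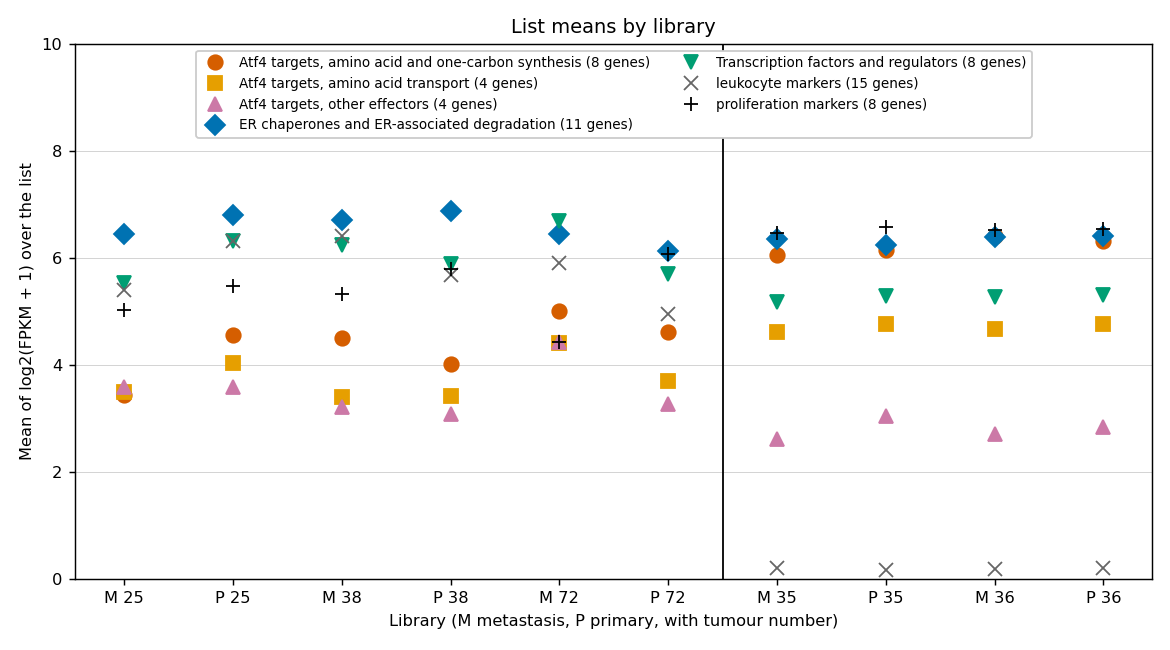
Mean log2(FPKM + 1) of 5 role groups and of the leukocyte and proliferation markers in each library, with metastasis (M) left of primary (P) for each tumour number. Right of the vertical line, in numbers 35 and 36, the synthesis enzymes stand between 6.05 and 6.41 and leukocyte markers near the bottom, while the synthesis enzymes stand between 3.43 and 5.01 on the left, and the ER chaperones lie between 6.13 and 6.87 throughout.

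The sensors and Xbp1 differed in direction. Atf6 was 7.30, 33.8, 37.3, 10.4 and 15.1 FPKM in metastasis libraries, against 10.5, 25.1, 28.2, 12.1 and 9.83 FPKM in primary libraries, higher in all libraries of numbers 35 and 36 (limma adjusted p = 0.0207). Ppp1r15a differed among numbers with its higher values in numbers 25 and 72 (adjusted p = 0.0452). This call was lost with a looser or no expression minimum, with no intensity trend and with no group term, and without any 1 of 7 libraries (metastasis 35, 36 or 38, or primary 35, 36, 38 or 72), with adjusted p values up to 0.129. Xbp1, the factor that Ire1 activates by splicing, was 62.0, 43.7, 41.5, 101 and 98.3 FPKM in metastasis libraries, against 97.4, 29.7, 44.4, 119.6 and 57.7 FPKM in primary libraries. All libraries of numbers 35 and 36 were below all others, in a gene also abundant in plasma and acinar cells, and the F-test gave an adjusted p of 0.0613. The adjusted p was under 0.05 without metastasis 25, metastasis 72, primary 25 or primary 72.

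Hspa5 (ENSMUSG00000026864.13, chromosome 2, 34771970 to 34777547), the main ER chaperone BiP, was 325, 413, 438, 480.3 and 453 FPKM in metastasis libraries, against 473, 334, 393, 549 and 238 FPKM in primary libraries. Primary 72 was lowest and primary 38 highest, and neither group nor number separated the values (0.13, SE 0.24, for metastasis minus primary, and limma adjusted p = 0.652 among numbers). Hsp90b1 and Calr, chaperones of similar abundance, lay between 346 and 604 FPKM and between 206 and 519.9 FPKM over all 10 libraries. Of the 11 chaperones and degradation factors, 0 were higher and 3 lower in all libraries of numbers 35 and 36 than in all others (19.9% of all genes were lower in this way). Dnajb9, an ER cochaperone and Xbp1 target, was 23.5, 10.9, 9.62, 22.9 and 23.6 FPKM in metastasis libraries, against 23.5, 13.0, 11.4, 20.2 and 22.0 FPKM in primary libraries (adjusted p = 0.0265).

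The disulfide isomerases Pdia4 and Pdia6 differed in the order of their libraries. Pdia4 was 47.2, 124, 147, 99.8 and 87.9 FPKM in metastasis libraries, against 106, 118, 145, 144 and 99.2 FPKM in primary libraries, lowest in metastasis 25 (-0.35, SE 0.29). Pdia6 was 161, 131, 137, 193 and 161 FPKM in metastasis libraries, against 266, 119.9, 142, 232 and 191 FPKM in primary libraries, highest in primary 25 (-0.23, SE 0.24). Neither gene passed in either test. Herpud1, a factor of ER-associated degradation, was 140.3, 25.0, 28.8, 43.4 and 36.6 FPKM in metastasis libraries, against 41.5, 29.5, 31.4, 28.1 and 31.8 FPKM in primary libraries. Metastasis 25 stood alone at the top, and the other 9 lay between 25.0 and 43.4 FPKM (0.44, SE 0.41). The remaining factors Dnajc3, Sdf2l1, Manf and Edem1 had ratios of highest to lowest library between 2.02 and 5.60, and none passed.

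Within single pairs, taken as labelled, the members differed in opposite directions. In number 72, 30 of 39 members were higher in the metastasis library (50.0% of all genes), 14 of them by more than 1 on the log2 scale (10.4% of all genes) and 0 were lower by that much (11.8% of all genes). The 14 were Ern1, Atf5, Ddit3, Nupr1, Trib3, Asns, Mthfd2, Aldh18a1, Slc7a5, Slc3a2, Slc6a9, Chac1, Sesn2 and Sdf2l1. The largest was Chac1, at 8.97 FPKM in metastasis 72 and 1.45 FPKM in primary 72, a difference of 2.02, followed by Ddit3 at 1.72. All 8 transcription factors were higher (median 1.06), and of the 11 chaperones and degradation factors 8 were (median 0.20). In number 25, 26 of 39 members were lower in the metastasis library (50.2% of all genes), 11 of them by more than 1 (13.0% of all genes). Nupr1 differed most, at 51.8 FPKM in metastasis 25 and 637 FPKM in primary 25. Mthfd2, Aldh18a1, Atf5, Chac1, Asns and Pycr1 were lower by 1.80 to 2.59, and Manf, Cebpg, Sdf2l1 and Pdia4 by less than these but more than 1. Vldlr, Ppp1r15a, Herpud1 and Eif2ak4 were higher by more than 1 (11.9% of all genes). Each of these is 1 library against 1 library and has no test. In deviations from the group means, metastasis 25 matched primary 72 best and metastasis 72 matched primary 25 best. With the primary library of their own number they correlated at 0.39 and 0.23. Whether the libraries of numbers 25 and 72 are rightly paired was not tested.

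Other transcripts differed in the same pairs. Proliferation markers were lower in metastasis 72 for 8 of 8 genes (median -1.85), and leukocyte markers were higher for 12 of the 13 tested (median 1.10). In number 25 the leukocyte markers were lower in the metastasis library for 12 of 13 (median -1.34) and the proliferation markers for 6 of 8 (median -0.40). Metastasis 25 held 9850 FPKM of albumin and 6727 FPKM of S100a9, and primary 25 held 5163 FPKM of Ins2 and 1834 FPKM of Igkc, an islet and a plasma cell transcript. The part of these cells in the pair differences was not tested. In numbers 35, 36 and 38 the medians over the members were 0.03, -0.0080 and 0.17, and 23, 19 and 22 of the 39 were higher in metastasis, against 53.1%, 53.1% and 50.0% of all genes. In number 35 Vldlr was lower by more than 1 (1.7% of all genes) and 0 members were higher (1.14%), and in number 36 there were 0 in either direction (0.753% higher and 0.874% lower). In number 38 Cebpb and Pycr1 were higher (7.41%) and Ddit4 was lower (3.12%) by more than 1.

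**Figure D4:**
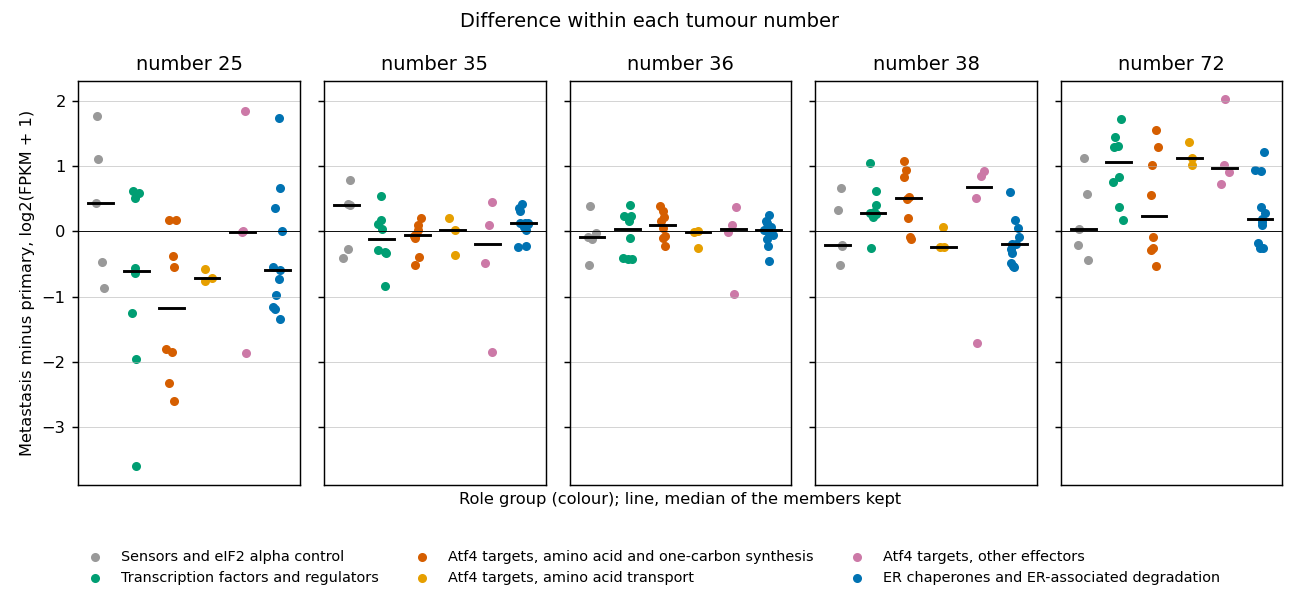
Metastasis minus primary on the log2(FPKM + 1) scale within each tumour number as labelled. Metastasis 25 matched primary 72 best, and metastasis 72 matched primary 25 best. Each point is a member that was tested, coloured by role, and the line is the median of the role group. Points spread widely in numbers 25 and 72, mostly below 0 in number 25 and above 0 in number 72, and cluster near 0 in numbers 35 and 36.

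The difference between metastasis and primary was also compared between the sets of numbers. No member passed in limma's test of that difference (0 of 39 and 0.0% of all genes, with 1 member and 133 genes, or 1.01%, at an unadjusted p under 0.05). The member was Vldlr, a lipoprotein receptor that Atf4 induces, named after its values were seen. It was 12.0, 0.147, 0.114, 4.50 and 9.75 FPKM in metastasis libraries, against 2.62, 3.13, 1.17, 1.89 and 4.70 FPKM in primary libraries. Metastasis values were lower than primary ones in numbers 35 and 36 (-1.41, SE 0.35) and higher in numbers 25, 38 and 72 (1.23, SE 0.44), with an unadjusted p of 0.00294 for the difference and an adjusted p of 0.99991.

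Further genes of these pathways were drawn from fixed lists. Of 20 aminoacyl-tRNA synthetases, which charge tRNA and are in part Atf4 targets, 9 passed the F-test among numbers, all with higher levels in numbers 35 and 36 (13.7% of all genes), and 15 were higher in all libraries of these numbers than in all others (24.0% of all genes). Iars, for isoleucine, ranged from 87.5 to 102.2 FPKM in numbers 35 and 36 and from 9.07 to 33.3 FPKM in numbers 25, 38 and 72 (adjusted p = 0.0137). Aars ranged from 81.9 to 119 FPKM and from 22.6 to 46.8 FPKM (adjusted p = 0.0140), and Eprs from 59.0 to 66.5 FPKM and from 20.9 to 38.2 FPKM (adjusted p = 0.0102). Between metastasis and primary libraries 0 of the 20 passed, and the smallest unadjusted p values were those of Kars (0.30, SE 0.30), Dars (0.21, SE 0.32) and Farsa (0.09, SE 0.23).

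Of 19 other integrated stress response genes tested, 4 passed among numbers, 3 with higher levels in numbers 35 and 36. This share of 21.1% was below the 25.4% of all genes, so the count is no result about this list. Shmt1, the cytosolic serine hydroxymethyltransferase, ranged from 21.8 to 25.1 FPKM in numbers 35 and 36 and from 5.67 to 11.4 FPKM in numbers 25, 38 and 72. Eif2s1, which encodes eIF2 alpha, ranged from 57.1 to 67.0 FPKM and from 21.0 to 30.7 FPKM in the same sets. Atf3, an immediate stress factor, ran the other way, at 1.07 to 1.74 FPKM in numbers 35 and 36 and 4.01 to 39.0 FPKM in the others. It was higher in metastasis in 5 of 5 pairs (1.37, SE 0.82), without passing. The transaminase genes Got1 (0.64, SE 0.52) and Gpt2 (0.51, SE 0.47) did not pass either, and their differences came from 1 library. Got1 was 256 FPKM in metastasis 25 and 32.9 to 49.5 FPKM in the other metastasis libraries, and the difference was 3.17 in number 25 and between -0.53 and 0.36 in the other 4 pairs. Gpt2 was 42.6 FPKM in metastasis 25 and 7.37 to 12.1 FPKM in the other metastasis libraries, and the difference was 2.64 in number 25 and between -0.53 and 0.66 in the other 4 pairs. Metastasis 25 also held 20479 FPKM of hepatocyte markers, whose part in these differences was not tested. Of 24 other ER stress genes tested, 5 passed among numbers, 4 with lower levels in numbers 35 and 36 (11.7% of all genes). The share that passed, 20.8%, was likewise below the 25.4% of all genes. Sec61b, of the translocation channel, was 47.9 to 52.6 FPKM in numbers 35 and 36 and 114 to 182 FPKM in the others, Crebrf 1.25 to 1.50 and 3.56 to 7.47 FPKM, and Mbtps2, a protease that activates Atf6, 13.0 to 16.9 and 5.77 to 7.95 FPKM. Between groups 0 of the 24 passed, with Sec24d (-0.44, SE 0.32), P4hb (-0.28, SE 0.27) and Dnajc10 (-0.14, SE 0.15) at the smallest unadjusted p values.

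The count of members called among numbers rested on few libraries. It was 3 without metastasis 36, 4 without primary 36, 5 without metastasis 35, 6 without primary 35, 7 without metastasis 38 and 20 without primary 25, against 12 with all libraries, and the share of all genes called moved between 1.79% and 37.2% at the same time. Among the named members, Psat1, Phgdh and Cebpb still passed whichever library was left out. The calls of Asns, Atf6, Slc7a5, Slc3a2 and Dnajb9 were lost without any 1 of the 4 libraries of numbers 35 and 36, and that of Ddit4 without metastasis 35, metastasis 36 or primary 36. Those of Asns, Slc3a2 and Dnajb9 were also lost without metastasis 38 or primary 38, and that of Atf6 without metastasis 38. With no expression minimum those of Asns and Atf6 were lost too.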

How the data were processed

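RNA of 10 libraries was measured by polyA sequencing, and the authors deposited FPKM values in 1 table. Salmon, edgeR and mm8 appear in the submitters' processing notes without a role, and which program gave the FPKM is not stated there. Of 40599 identifiers matched to GENCODE M21 (GRCm38), 99.97% had their gene within the table's locus, so coordinates are for GRCm38, counted from 1. For 10 of the 33 members matched there, the table's locus was wider than the gene (Slc7a5, Manf, Cebpb, Ddit3 and Ppp1r15a among them). Ddit3 had the same locus as Mars, a gene of the synthetase list. How reads of overlapping genes were assigned is not stated. The 35 lines without an identifier were left out, and a repeated symbol was used for its row with the highest mean. Depth, estimated from the smallest value steps in 742 single-exon genes of at least 3000 bases, came to 15.9 M fragments in metastasis 25 and 24.4 to 30.3 M in the others, provided that FPKM were scaled to library totals. An exact 0 can be a failed estimate.

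Since FPKM are no counts, count models were not used. The 13152 genes that reached 1 FPKM in 5 or more libraries were tested on log2(FPKM + 1), which understates changes of low genes, with limma 3.58.1 in R 4.3.3 (intensity trend, Benjamini-Hochberg over all genes, threshold 0.05, and statmod 1.5.0 for a random block). The metastasis and primary groups were compared over all 10 libraries, and the tumour numbers by an F-test with the group in the model. Both tests were tested on simulated data. The deviations of same-numbered samples from their group means correlated at 0.39, 0.86, 0.89, 0.68 and 0.23 (numbers 25, 35, 36, 38 and 72), all above 0.1, and the numbers were treated as pairs on that ground alone. Metastasis 36 and 38 correlated best with the primary sample of their own number, but 3 of 5 matched another number best (metastasis 25 matched primary 72, metastasis 35 matched primary 36, and metastasis 72 matched primary 25). Alternatives were other pseudocounts, expression minimums, scalings and fits, the pairs as a block, and each library left out. Values in every library are given for 7 core genes and for the members of each role with the smallest p in each test. The members, lists and rule were chosen with earlier results of these data known. Figures were drawn with matplotlib 3.10.9.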

Additional observations from a re-analysis of the deposited data

Results flagged for a closer look

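Pycr1, which completes proline synthesis, was 1.83 FPKM in metastasis 25, against 7.38 to 11.5 FPKM in the other 4 metastasis libraries. On the log2 scale its gap to the nearest of them took 0.731 of the range of the group, above the critical value of 0.710 for 5 samples. It was the 1 library marked among 48 groups of 5 examined (24 named members in metastasis and primary libraries), where chance marks about 1 group in 20.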

How the results depend on the processing

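Between metastasis and primary libraries 0 genes and 0 members passed in limma under every alternative run, including the tumour number as a replicate block (fixed or random effect, 0 genes, with 208 genes and 2 members at an unadjusted p under 0.05 with the fixed block), against 31 genes and 1 member without it. The number of genes that differed among tumour numbers was 3344, and 1525 with no expression minimum, 1 within numbers 25, 38 and 72, and 236 to 4894 when 1 library was left out. For members these were 12, 8, 0, and 3 to 20. Fewer samples or more genes tested are part of each of these alternatives. Of the role group medians, none moved by more than the spread between pairs. That spread was wide, with pair medians of all members from -0.56 (number 25) to 0.73 (number 72). With 1 library left out, the median of every role group changed sign, as for the synthesis enzymes (-0.36 to 0.29), the sensors and eIF2 alpha regulators (-0.13 to 0.35) and the chaperones and degradation factors (-0.20 to 0.069). A shorter core, TGATG, occurred in 12 member promoters and in 42.9% of all symbols. The metastasis minus primary difference (log2), which passed for no member, changed sign within numbers 35 and 36 for Trib3 (-0.061), Asns (-0.11), Aldh18a1 (0.24), Psat1 (0.060), Sesn2 (-0.25), Ddit4 (0.27), Pdia4 (0.048), Herpud1 (-0.18), Pdia6 (0.039), and within numbers 25, 38 and 72 for Xbp1 (-0.044), Atf6 (-0.033), Dnajb9 (0.091). With 1 library left out it changed sign for Trib3 -0.057 to 0.34, Asns -0.50 to 0.66, Chac1 -0.086 to 0.74, Xbp1 -0.20 to 0.30, Hspa5 -0.039 to 0.26, Atf6 -0.13 to 0.43, Pycr1 -0.36 to 0.17, Aldh18a1 -0.52 to 0.40, Psat1 -0.56 to 0.21, Phgdh -0.35 to 0.45, Slc3a2 -0.19 to 0.39, Slc7a5 -0.30 to 0.47, Ddit4 -0.70 to 0.42, Dnajb9 -0.18 to 0.15. The cause was not tested. The depth and larger FPKM sum of metastasis 25 and the host cell transcripts limit all levels.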

Other observations

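Metastasis 25 and metastasis 72 held many of the extreme values of the 40 members. Metastasis 25 had the highest level for 7 members and the lowest for 12, these lowest values including 5 of the 8 synthesis enzymes (Asns, Psat1, Mthfd2, Aldh18a1 and Pycr1). Metastasis 72 had the highest level for 8 and the lowest for 0, and metastasis 36 the highest for 9 and the lowest for 4. Primary 38 had the highest level for 5 of the 11 chaperones and degradation factors, and primary 72 the lowest for 4 of them. Extremes were not counted over all genes, so these counts are no result about the members. Over all genes, 11.9% were higher and 13.0% lower by more than 1 on the log2 scale in metastasis than in primary 25. These shares were 10.4% and 11.8% in number 72, 7.41% and 3.12% in number 38, 1.14% and 1.7% in number 35, and 0.753% and 0.874% in number 36. The members together took 0.277% of the FPKM sum in metastasis 25 and 0.402% to 0.706% in the other 9 libraries. The FPKM sum was largest in metastasis 25 (939415), so a lower share there is not by itself a lower level of the members.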
